A study of Mus musculus with 10 samples.

Results

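A set of 10 genes for matricellular and fibre-forming glycoproteins of the extracellular matrix were followed in mouse adipocyte precursors (APs) with and without interleukin-4 (IL-4). The 10 genes are Postn, Tnc, Thbs1, Thbs2, Fn1, Sparc, Spp1, Tgfbi, Fbn1 and Lox. They were chosen by symbol, with earlier results of these data known, so they are not an unselected sample of genes. All 10 were found among the 18384 genes listed in the mRNA-seq data, and all 10 were among the 14009 genes with enough reads for a test. The APs came from the subcutaneous white adipose tissue of C57BL/6 J mice. Cells carrying CD45 or CD31 had been removed on magnetic columns, and cells carrying SCA-1 were then retained and cultured in medium with serum. The treated cultures received IL-4 from the day after seeding, and the control cultures (3 libraries, replicates 1 to 3) did not. The IL-4 cultures (3 libraries, replicates 4 to 6) were harvested, with the controls, after 4 days of IL-4. No other treatment or genetic change distinguishes the groups, and the cells of all 6 libraries share the isolation and the growth medium. The p-values below measure the spread between the 6 libraries, each taken as a separate culture. No label ties a library to a single culture or animal.

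Matricellular proteins are secreted into the matrix but mainly modulate how cells attach, signal and assemble fibres, and many are low in resting tissue and abundant during repair and fibrosis. Periostin, tenascin C, the thrombospondins, SPARC and osteopontin belong to this class. Fibronectin and fibrillin-1 instead form fibrils themselves, and lysyl oxidase cross-links collagen and elastin. In white adipose tissue these proteins are made by stromal cells, and osteopontin and fibronectin are also made by macrophages.

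Together the 10 genes held between 4.39% and 4.91% of all counts in the control libraries and between 6.47% and 7.87% in the IL-4 libraries. Of the 10 genes, 5 were higher with IL-4 (Postn, Lox, Fn1, Fbn1 and Sparc) and 5 were lower (Spp1, Thbs1, Thbs2, Tgfbi and Tnc) (adjusted p under 0.05, where edgeR's quasi-likelihood p-values were adjusted by the Benjamini-Hochberg method over all 14009 genes). Of all genes tested, 19.0% were higher and 18.4% were lower by that rule. With a log2 fold change beyond 1 as a further condition, Postn, Lox and Fn1 were higher and Spp1, Thbs1 and Thbs2 were lower, against 5.77% and 5.26% of all genes. The median absolute log2 fold change was 1.05 over the 10 genes and 0.221 over all genes tested. Because the rises and falls were equal in number, the median signed log2 fold change of the 10 was -0.03, beside 0.0026 for all genes tested.

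Depth was similar in all libraries, at 28526782 to 29057787 expected counts. Control replicate 3 and IL-4 replicate 6 stood apart from the other libraries of their groups by transcript length. For transcripts over 8000 bases, of genes averaging 100 normalized counts or more, the median log2 deviation from the group mean was -0.17 in control replicate 3 and -0.33 in IL-4 replicate 6. For transcripts up to 1000 bases it was 0.12 and 0.27. Between the groups, the median log2 fold change went from 0.14 in the shortest of these classes to -0.12 in the longest. Of the 10 genes, 9 also split by length within their groups. Fbn1, Fn1, Thbs1, Tnc, Thbs2 and Lox, with transcripts from 4688 to 9900 bases, were at their lowest in those libraries, and Spp1, Tgfbi and Sparc, with 1431 to 2678 bases, were at their highest. Postn, with 3144 bases, was at its lowest in IL-4 replicate 6 but not in control replicate 3. The fold changes and counts of calls below were therefore also computed without both libraries, and with the length trend of every library removed, both chosen after the data were seen. The ratios, transcript lengths and FPKM below were not adjusted in this way. All 10 directions and all 10 calls at adjusted p under 0.05 were kept in those fits. Beyond a log2 fold change of 1, Thbs2 was lost in both, at -0.95 and -0.94. By adjusted p alone, both fits called more of all genes. Without both libraries 3576 were higher and 3521 lower, and with the trend removed 3614 and 3544, in place of 2663 and 2582. Each library left out was the one least like the others of its group, so the remaining spread is small by construction. The p-values of these fits cannot be set beside those from all 6 libraries. What lowers long transcripts in those libraries was not tested.

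**Figure D1:**
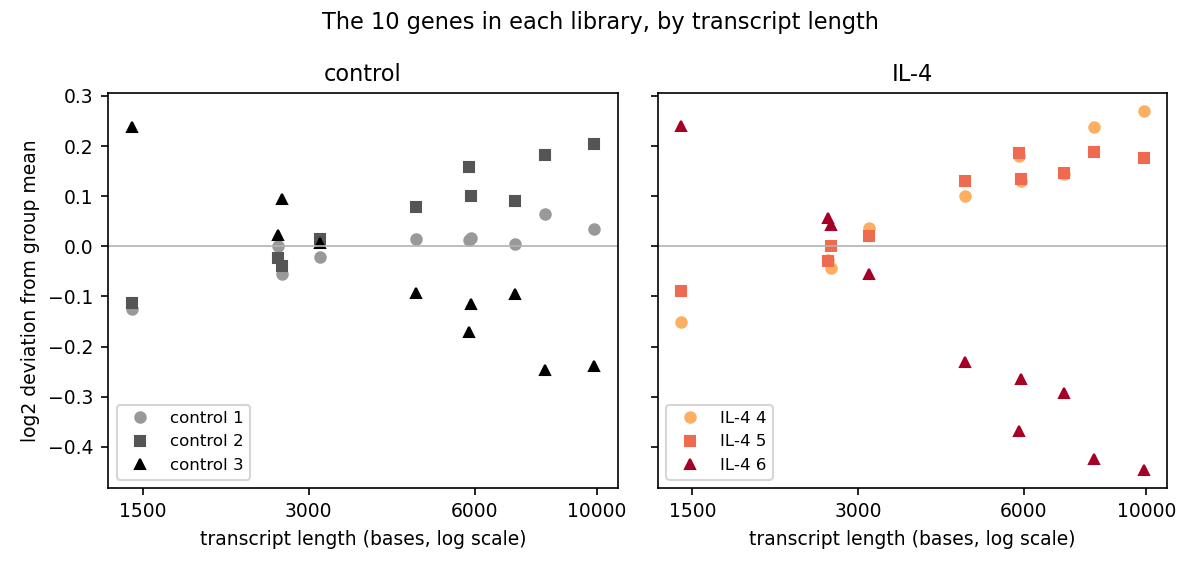
Log2 deviation of each of the 10 genes in each library from its group mean of log2 normalized counts (y axis) against transcript length in bases (x axis, log scale), for control libraries (left) and IL-4 libraries (right). Control replicate 3 and IL-4 replicate 6 (triangles) slope downward, from 0.24 for Spp1 in both to -0.24 and -0.45 for Fbn1.

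Library scaling also bears on direction. With library totals in place of TMM scaling, the median log2 fold change of all genes was -0.17, and 1704 genes were higher and 4963 lower, in place of 2663 and 2582. The 10 genes kept 5 rises and 5 falls there too. FPKM (fragments scaled by transcript length and by the fragments mapped in the library) carries the same shift. In FPKM every IL-4 library exceeded every control library for 14.8% of all genes tested and lay below every control library for 43.0%. Among the 10 genes, 4 were in the first class, 5 in the second, and Fbn1 overlapped. Values per library are given below as FPKM, the scale on which levels of different genes can be compared, and fold changes come from the fit on counts.

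**Figure D2:**
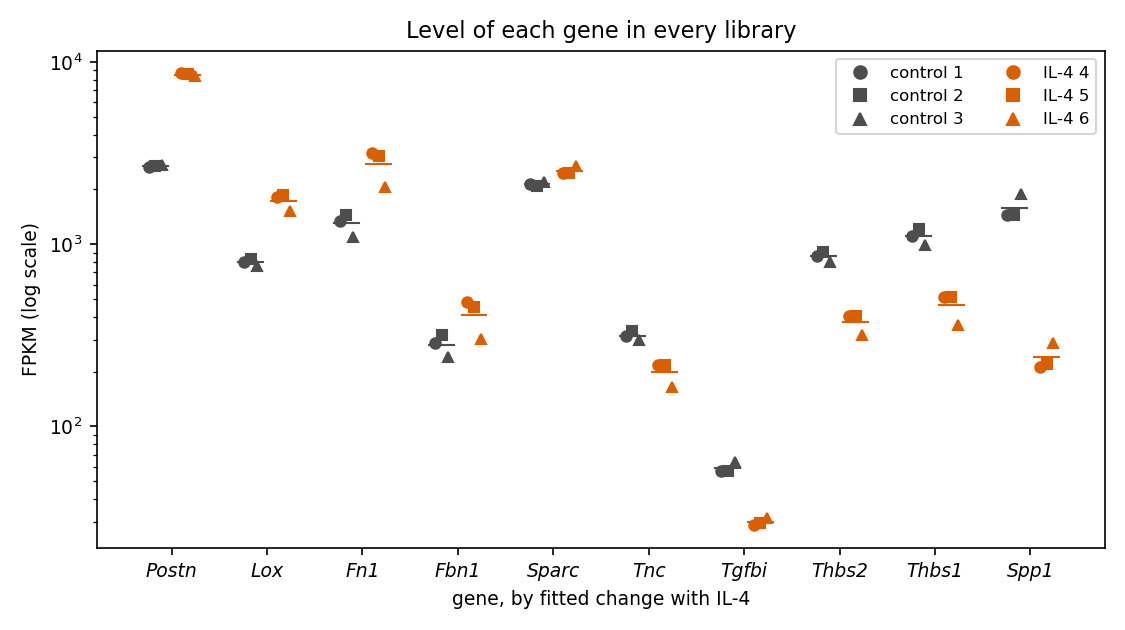
FPKM (y axis, log scale) of the 10 genes (x axis, ordered by fitted change) in each of the 3 control libraries (grey) and 3 IL-4 libraries (orange), with bars at the group means. Postn reaches 8375 to 8673 FPKM with IL-4, and Fbn1 is the one gene whose groups overlap.

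Postn encodes periostin, a secreted protein that binds integrins and collagen and is a hallmark of activated fibroblasts (Entrez gene 50706, chromosome 3 from 54359267 to 54391041, mm10). It had 2643, 2692 and 2725 FPKM in the control libraries and 8673, 8579 and 8375 with IL-4. The groups were far apart, with coefficients of variation of 1.53% within the controls and 1.78% within the IL-4 libraries. By FPKM, Postn ranked between 5 and 6 among all genes in control APs and was the most abundant mRNA of every IL-4 library. Its share of all counts went from between 0.815% and 0.841% to between 2.58% and 2.66%. Postn rose 3.57-fold, a log2 fold change of 1.84 (SE 0.069, adjusted p = 7.2e-07, edgeR's quasi-likelihood test) that lay between 1.66 and 1.87 in all 14 alternative fits. Although the most abundant, Postn was only the 355th of 14009 genes by the size of its rise. An unlisted annotated gene, Gm31095, overlaps the first part of Postn, and since the libraries are not stated to keep strand, reads from it could not be told apart.

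The deposited length column adds a second readout for Postn beside its level. For a gene with several transcripts it is a mean over the gene's transcripts, weighted by their estimated abundance. The files assign 5 RefSeq transcripts to Postn, between 3052 and 3214 bases long in the annotation of GRCm38.p6. They differ by 3 coding exons near the 3′ end, the 17th, 20th and 21st of the 23 exons in order along the gene, which 2, 3 and 1 of the 5 transcripts hold. These exons encode part of the carboxy-terminal region, where periostin is known to be alternatively spliced. The files' own lengths come from an annotation that may differ, since Thbs1 had 5863.65 bases in the files and at most 5848 here, and Tgfbi 2678 and 2715. The sequences of the 3 exons by which the annotated transcripts differ in length are shown with the exon in capitals and 20 bases of intron in lower case on each side, on the plus strand of GRCm38.p6.

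Postn exon 17, 81 bases, chr3:54380412-54380492: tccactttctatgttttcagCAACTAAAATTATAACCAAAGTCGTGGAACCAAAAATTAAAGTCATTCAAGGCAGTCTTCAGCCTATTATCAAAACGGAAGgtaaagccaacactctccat
Postn exon 20, 78 bases, chr3:54385208-54385285: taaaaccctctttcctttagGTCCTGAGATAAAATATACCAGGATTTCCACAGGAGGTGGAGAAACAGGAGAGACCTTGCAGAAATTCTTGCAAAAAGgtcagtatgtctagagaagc
Postn exon 21, 84 bases, chr3:54385671-54385754: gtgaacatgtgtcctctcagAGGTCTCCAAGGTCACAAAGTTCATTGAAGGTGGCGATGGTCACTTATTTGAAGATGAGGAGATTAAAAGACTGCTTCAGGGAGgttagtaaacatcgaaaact

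The weighted length of Postn was 3151.64, 3150.89 and 3150.17 bases in the control libraries and 3137.87, 3138.31 and 3138.30 bases with IL-4. All IL-4 libraries were shorter, by 12.74 bases on average, beside a spread of 0.735 bases (SD, n = 3) in the controls and 0.251 (SD, n = 3) with IL-4. The exact two-sided permutation test gave p = 0.1, the smallest value that 3 libraries against 3 allow. The groups did not overlap in length for 13.5% of the 3849 tested genes with several transcripts and at least 100 normalized counts, and Postn ranked 1035th among them by relative change. Which of the exons differs in use cannot be read from a mean length. Of the 10 genes, 6 have several transcripts in the files. Fn1, with 7 transcripts that include or skip its extra type III repeats, had 8036.19, 8038.92 and 8033.75 bases in controls and 8042.08, 8041.94 and 8029.96 with IL-4 (exact permutation p = 0.8), and these groups overlapped. Lox overlapped as well and was shortest in control replicate 3 (4659.33 bases) and IL-4 replicate 6 (4619.59 bases). For Thbs1, Spp1 and Sparc the group means differed by less than 1 base. The groups of Sparc, at 2640.49 to 2640.52 bases in controls and 2640.47 to 2640.48 with IL-4, did not overlap either (exact permutation p = 0.1).

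Promoter sequence was available for 7 of the 10 genes, as RefSeq windows from 250 bases before to 50 after the annotated start in GRCm38.p6. In the 10 windows of these genes (Fbn1, Postn, Tnc, Spp1, Sparc, Tgfbi and Thbs2, some with a second start) no match was found on either strand for the STAT6 motif (the TTC and GAA half-sites with 4 bases between), which 6.95% of all 32851 windows hold. There was also no match for the STAT motif TTCNNNGAA, with 1 base less between (8.3% of all windows), the TEAD motif GGAATG (14.7%) or the AP-1 motif TGANTCA (7.81%). The letters TATAAA of the TATA box were found in 5 of the 10 windows, at any position and on either strand, against 13.6% of all windows. In Postn the match begins 26 bases before one of the starts. That promoter, of the gene with the largest rise among the 10, is shown in plus-strand orientation with TATAAA in capitals.

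Postn promoter, chr3:54360857-54361156: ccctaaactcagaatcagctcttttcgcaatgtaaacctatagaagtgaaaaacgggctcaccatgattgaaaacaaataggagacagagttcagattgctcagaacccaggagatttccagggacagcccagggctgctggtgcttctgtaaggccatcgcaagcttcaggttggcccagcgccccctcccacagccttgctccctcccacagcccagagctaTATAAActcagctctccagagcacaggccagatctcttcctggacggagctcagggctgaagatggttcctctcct

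The other TATAAA matches begin 126 bases before the start in Thbs2, 211 in Spp1, and 126 and 205 in 2 overlapping windows of Tnc, where they are 1 site seen from 2 starts, so that the 5 windows hold 4 sites in 4 genes. The match in Thbs2 is on the strand opposite to the gene. Whether any of these matches acts as a TATA box was not tested. A missing match says only that these letters are not in the window.

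Lox encodes lysyl oxidase, the copper enzyme that starts the covalent cross-linking of collagen and elastin (Entrez gene 16948, chromosome 18 from 52516060 to 52529867). Its level was 798, 830.06 and 756 FPKM in controls and 1828, 1863 and 1516 with IL-4. Every IL-4 library was above every control, with IL-4 replicate 6 the lowest of its group. The log2 fold change of 1.30 (SE 0.11, adjusted p = 4.9e-05, edgeR's quasi-likelihood test) was a 2.45-fold rise and was 1.36 without the libraries low in long transcripts.

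Fn1 encodes fibronectin, the fibril-forming glycoprotein on which other matrix fibres assemble (Entrez gene 14268, chromosome 1 from 71585473 to 71653280). It had 1349, 1454 and 1100.05 FPKM in controls and 3171, 3065 and 2067 with IL-4. The groups did not overlap, but replicates 3 and 6 were each well below the rest of their group. The log2 fold change was 1.26 (SE 0.19, adjusted p = 0.0011, edgeR's quasi-likelihood test), a 2.40-fold rise, and was 1.33 without both of those libraries. Fn1, whose transcript is longer than that of Postn, held between 0.878% and 1.16% of all counts in controls and between 1.65% and 2.53% with IL-4.

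Fbn1 encodes fibrillin-1, the backbone of the microfibrils that scaffold elastic fibres and hold latent TGF-β (Entrez gene 14118, chromosome 2 from 125300594 to 125506485). Its level was 286, 319.5 and 239 FPKM in controls and 479.9, 450.06 and 301 with IL-4. IL-4 replicate 6 lay below control replicate 2, so the groups overlapped. The log2 fold change was 0.72 (SE 0.19, adjusted p = 0.019, edgeR's quasi-likelihood test). It was the least stable call of the 10. It was no longer called when control replicate 1, control replicate 3, IL-4 replicate 4 or IL-4 replicate 5 was left out (adjusted p from 0.053 to 0.066) or on the FPKM scale. Without both libraries low in long transcripts, with 2 libraries per group, it was 0.80 (adjusted p = 1.03e-09). With the length trend removed it was 0.84 (adjusted p = 1.5e-06). Both fits call more of all genes, so these smaller p-values do not offset the lost calls.

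Sparc encodes SPARC (osteonectin), a collagen-binding counter-adhesive protein (Entrez gene 20692, chromosome 11 from 55394159 to 55420080). It had 2132, 2080.2 and 2184 FPKM in controls and 2465, 2459.6 and 2686 with IL-4. The groups did not overlap and the rise was the smallest of the 5, with a log2 fold change of 0.42 (SE 0.063, adjusted p = 0.0012, edgeR's quasi-likelihood test). On the FPKM scale, which carries the shift given above, it was 0.25 and not called (adjusted p of 0.15 and 0.13 in limma with pseudocounts of 1 and 0.1).

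Spp1 encodes osteopontin, a secreted phosphoprotein that binds CD44 and integrins (Entrez gene 20750, chromosome 5 from 104435111 to 104441053). It had 1446, 1446 and 1876 FPKM in controls and 212, 221 and 286 with IL-4. Every control library exceeded every IL-4 library several times over, and replicates 3 and 6 were the highest of their groups. The log2 fold change of -2.56 (SE 0.14, adjusted p = 5.0e-06, edgeR's quasi-likelihood test) was a 5.88-fold fall, the largest change of the 10 in either direction and the 94th largest fall of all genes tested. By FPKM, Spp1 ranked between 14 and 18 in controls and between 232 and 258 with IL-4. Most macrophage markers fell as well, by unequal amounts. Of 14 such markers, 12 were lower with IL-4, 1 was higher (Mrc1) and none was at 0 in all libraries. Adgre1 (-0.24) and Itgam (-0.27) had small log2 falls, and Cd68 (0.38) was not called (adjusted p = 0.057, edgeR's quasi-likelihood test). The summed level of the 14 markers was 4066 to 5298 FPKM in controls and 1628 to 2163 with IL-4. Lyz2 alone had means of 2739 and 776 FPKM. The part of these cells in the Spp1 result was not tested, and fewer cells of a type and less RNA per cell cannot be told apart in bulk samples.

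Thbs1 and Thbs2 encode thrombospondin-1 and thrombospondin-2, trimeric glycoproteins that inhibit angiogenesis and bind CD36 and CD47, the first of which also activates latent TGF-β (Entrez genes 21825 and 21826, chromosome 2 from 118111876 to 118127133 and chromosome 17 from 14665500 to 14694262). Thbs1 had 1109.8, 1219 and 987 FPKM in controls and 511, 513 and 359.9 with IL-4. Thbs2 had 864, 909 and 797 FPKM in controls and 405, 406 and 317 with IL-4. For both genes all IL-4 libraries lay below all controls, and IL-4 replicate 6 was the lowest library. The log2 fold changes were -1.08 for Thbs1 (SE 0.16, adjusted p = 0.0010) and -1.01 for Thbs2 (SE 0.12, adjusted p = 0.00032), both from edgeR's quasi-likelihood test. Both lie near the threshold of 1. Without IL-4 replicate 6 they were -0.92 and -0.89, and Spp1 was then the only one of the 10 genes lower by more than 1. Without both libraries low in long transcripts they were -1.004 and -0.95, and with the length trend removed -1.01 and -0.94.

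Tgfbi encodes the TGF-β-induced protein, a fasciclin-domain relative of periostin (Entrez gene 21810, chromosome 13 from 56609586 to 56639359). It was the least abundant of the 10, with 56.7, 56.9 and 63.6 FPKM in controls and 28.7, 29.6 and 31.4 with IL-4. The groups did not overlap and the spread within each was small. With IL-4 it fell, at a log2 fold change of -0.81 (SE 0.063, adjusted p = 3.3e-05, edgeR's quasi-likelihood test). Tnc encodes tenascin C, a hexameric anti-adhesive protein of wounds and developing stroma (Entrez gene 21923, chromosome 4 from 63959785 to 64047015). It had 315, 332 and 297 FPKM in controls and 216, 217 and 165 with IL-4, without overlap and with IL-4 replicate 6 lowest. Tnc fell with a log2 fold change of -0.48 (SE 0.12, adjusted p = 0.016, edgeR's quasi-likelihood test). It was -0.40 (adjusted p = 3.36e-07) without both libraries low in long transcripts, a fit with 2 libraries per group that calls more of all genes. It was not called without control replicate 1 (adjusted p = 0.055) or control replicate 2 (adjusted p = 0.062). The gene 8030451A03Rik, not listed in the files, overlaps Tnc, and its reads could not be told apart.

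**Figure D3:**
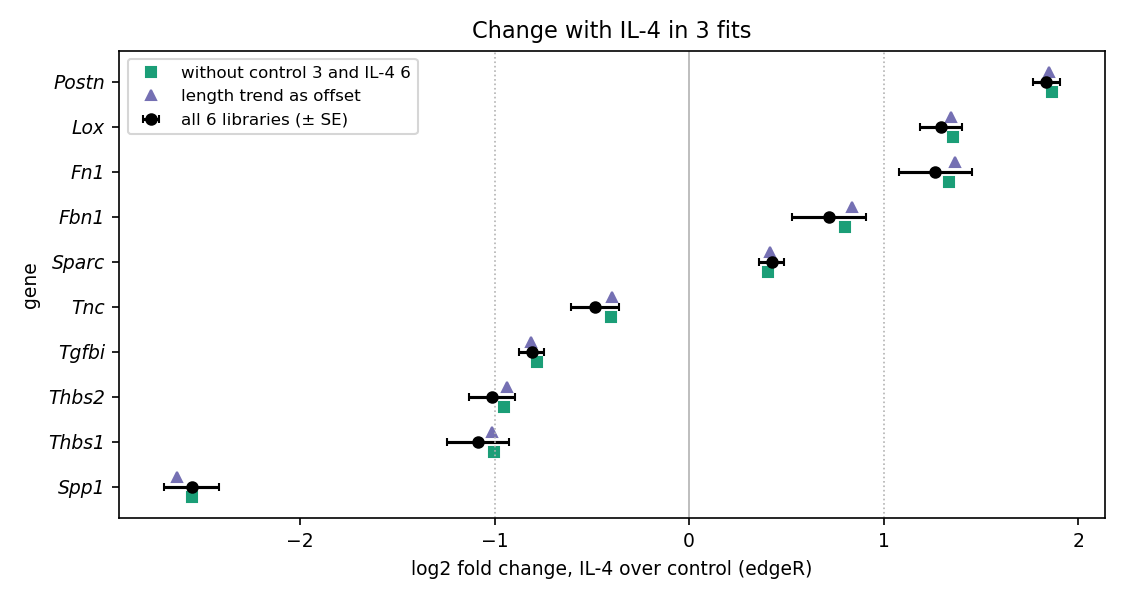
Log2 fold change of the 10 genes (x axis) with IL-4, from edgeR on all 6 libraries (black circles, bars are standard errors), without control replicate 3 and IL-4 replicate 6 (green squares) and with the length trend of each library as an offset (purple triangles). Dotted lines mark -1 and 1. All 3 fits give 5 rises and 5 falls, from -2.56 for Spp1 to 1.84 for Postn on all libraries.

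In all, 6 pairs of related genes, chosen with earlier results known, were compared by the ratio of their FPKM in the same library. The groups did not overlap in 5 of them. No share over other gene pairs was computed. Among single genes, FPKM lay wholly above the controls for 14.8% and wholly below for 43.0%, so a lack of overlap is common in these data. The ratio of Postn to Tgfbi was 46.6, 47.3 and 42.8 in controls and 302, 290 and 267 with IL-4, since the numerator rose and the denominator fell. The ratio of Lox to Loxl1, a lysyl oxidase with a role in elastic fibres, was 4.11, 4.39 and 3.79 in controls and 13.9, 14.1 and 10.7 with IL-4. Loxl1 itself fell (log2 fold change -0.35, adjusted p = 0.0015, edgeR's quasi-likelihood test). The ratio of Fbn1 to Fbn2, fibrillin-2, was 9.78, 9.73 and 9.65 in controls and 15.4, 14.97 and 14.9 with IL-4. Here the groups did not overlap although Fbn1 alone overlapped in FPKM, and both transcripts are long and low in replicates 3 and 6.

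The ratio of Sparc to Sparcl1, its anti-adhesive homologue hevin, was 1226, 1209 and 1149 in controls and 78.9, 79.6 and 90.6 with IL-4. Sparcl1 rose from 1.78 ± 0.099 to 30.6 ± 0.83 FPKM (SD, n = 3 each), a far larger change than that of Sparc given above. The ratio of Tnc to Tnxb, tenascin X, was 138, 140.1 and 178 in controls and 51.3, 55.3 and 63.3 with IL-4. All of these 5 ratios had no overlap between groups, and each gave p = 0.1 in an exact two-sided permutation test, the smallest the design allows (0.12 after Benjamini-Hochberg adjustment over the 6 pairs). The ratio of Thbs1 to Thbs2 was 1.28, 1.34 and 1.24 in controls and 1.26, 1.26 and 1.14 with IL-4, and these overlapped (exact permutation p = 0.4). Its log2 difference was -0.08, beside standard deviations of 0.057 and 0.089 (n = 3 each).

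**Figure D4:**
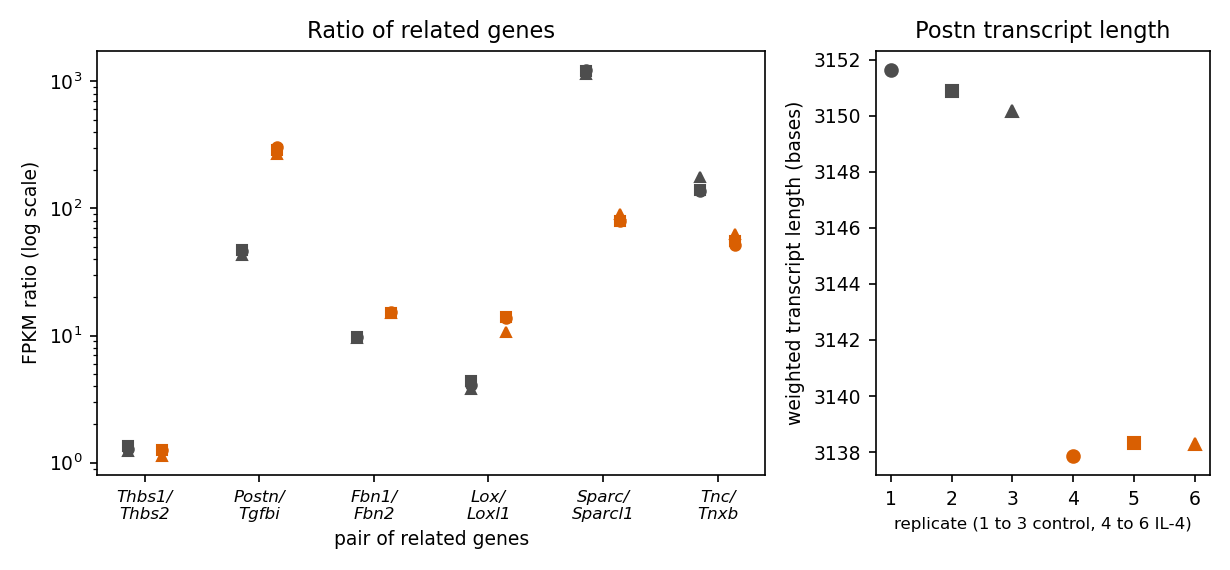
Left, ratio of FPKM of 6 pairs of related genes (y axis, log scale) in control libraries (grey) and IL-4 libraries (orange). Right, abundance-weighted transcript length of Postn in bases in each library, on an axis that does not start at 0. The groups overlap for Thbs1/Thbs2 and are apart for the other 5 pairs, and Postn length is 3150 to 3152 bases in controls and near 3138 bases with IL-4.

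The other matricellular genes, a list of 21 of which 19 were tested, were mostly lower. With IL-4, 12 were lower and 5 higher, with a median log2 fold change of -0.56, and the same counts were found without both libraries low in long transcripts. The falls include the CCN family, small modular regulators of growth factor and integrin signalling, of which Ccn4 (-1.62), Ccn2 (-1.49) and Ccn1 (-1.03) had the largest log2 falls among genes with at least 100 normalized counts (adjusted p from 1.1e-06 to 6.6e-06). Ccn2, also known as CTGF, went from 209 ± 8.4 to 66.0 ± 2.6 FPKM (SD, n = 3 each). The largest rises were those of Sparcl1 (4.28), Tnfaip6 (3.36), a hyaluronan-binding protein of inflamed tissue, and Comp (2.32), the thrombospondin of cartilage (adjusted p from 5.0e-08 to 1.5e-06, all from edgeR's quasi-likelihood test). Comp moved opposite to Thbs1 and Thbs2 but was scarce, at 9.14 ± 0.51 FPKM (SD, n = 3) with IL-4. The counts for this list and those below stand beside 19.0% of all genes tested that were higher and 18.4% that were lower. Beyond a log2 fold change of 1 these shares were 5.77% and 5.26%.

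The 20 genes of microfibrils and elastic fibres were split, with 8 higher and 8 lower (median log2 fold change -0.08). There were 9 higher and 9 lower without both libraries low in long transcripts, a fit that calls more of all genes in both directions. Efemp1 (2.16), a fibulin that rose from 35.1 ± 1.9 to 139 ± 8.6 FPKM (SD, n = 3 each), Fbln7 (1.87) and Fbln1 (0.88) had the largest log2 rises among genes with at least 100 normalized counts. Ltbp2 (-2.04), Eln (-1.78) and Ltbp1 (-1.04) had the largest falls under the same limit. Vtn, vitronectin, rose by 1.79 at a lower count. Eln, which encodes elastin, the core of elastic fibres, went from 52.2 ± 2.3 to 13.4 ± 0.33 FPKM (SD, n = 3 each) while Fbn1 rose. Adjusted p was between 4.4e-07 and 0.00031 for the 6 genes with the largest rises and falls, and 0.00043 for Vtn (edgeR's quasi-likelihood test).

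Of 17 genes for matrix cross-linking and processing, 16 were tested, 12 were higher and 3 lower, with a median log2 fold change of 0.64. The rise was beyond 1 in log2 for 7 of them. With at least 100 normalized counts, the largest log2 rises were those of Pcolce2 (4.74), an enhancer of procollagen cleavage, Loxl4 (1.98) and Loxl3 (1.90), both relatives of Lox. P4ha3 (-0.73), a subunit of collagen prolyl hydroxylase, and Loxl1 (-0.35) fell, and Tll1, below 100 normalized counts, was the other gene called lower. Adjusted p was between 6.8e-08 and 0.0015 for these 5 genes (edgeR's quasi-likelihood test). Lox, at 1736 ± 191 FPKM (SD, n = 3) with IL-4, remained far more abundant than Loxl3 (151 ± 0.88), Loxl1 (135 ± 5.5) and Loxl4 (11.8 ± 0.45; SD, n = 3 each). On the FPKM scale 9 of the 16 were higher. Fewer of all genes are called higher on that scale, 1697 and 1694 with pseudocounts of 1 and 0.1 in place of 2663.

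Of 18 receptors for these proteins, 17 were tested, 6 were higher and 4 lower (median log2 fold change 0.14). Without both libraries low in long transcripts 9 were higher and 4 lower. In that fit 3576 of all 14041 genes were higher and 3521 lower, so calls rose in general. Itgb3 (1.97), the integrin β3 chain that pairs with αv to bind periostin, fibronectin and osteopontin, went from 6.16 ± 0.30 to 21.4 ± 2.7 FPKM (SD, n = 3 each). Its partner Itgav, the αv chain, was one of the 4 that were lower, from 53.4 ± 6.1 to 33.7 ± 6.7 FPKM (SD, n = 3 each; log2 fold change -0.49, adjusted p = 0.045, edgeR's quasi-likelihood test). The thrombospondin receptors Cd36 (1.49) and Cd47 (1.06) also rose. Itga8 (-1.88), Stab1 (-1.79), a scavenger receptor for SPARC that macrophages express, and Itga4 (-1.78) fell. Adjusted p was between 1.4e-06 and 4.8e-05 for these 6 genes (edgeR's quasi-likelihood test). Itgb1 and Cd44, the common integrin β1 chain and the receptor of osteopontin, had log2 fold changes of -0.02 and -0.07, which did not pass the test (adjusted p of 0.87 and 0.37).

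**Figure D5:**
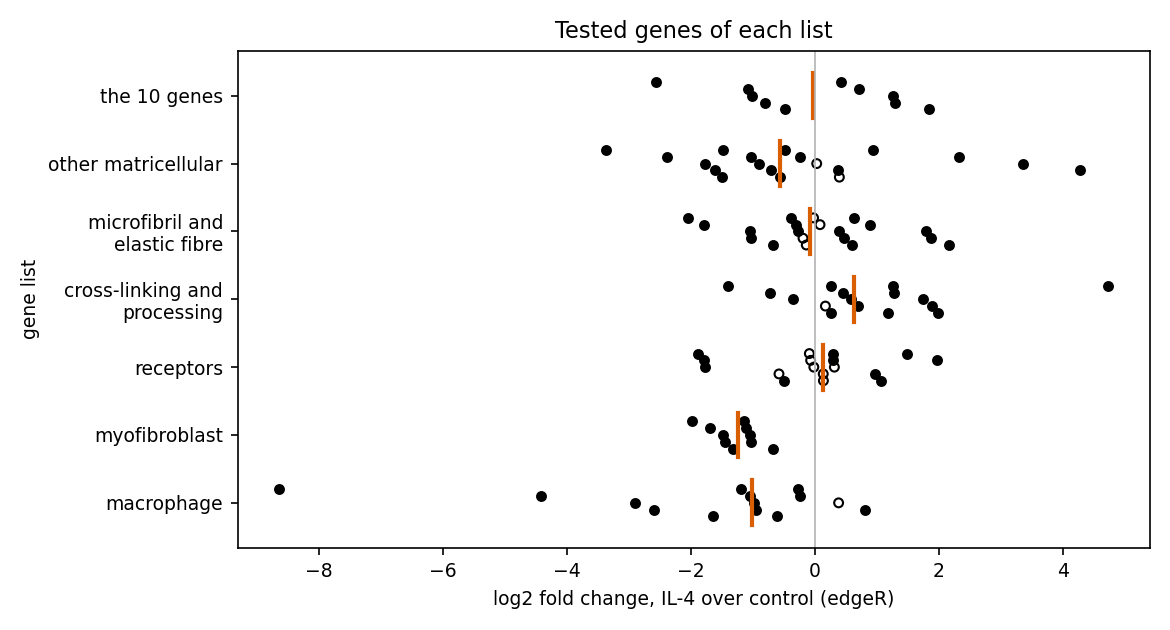
Log2 fold change with IL-4 (x axis) of every tested gene of 7 lists (rows), filled where the adjusted p is under 0.05 and open otherwise, with an orange line at the median of the list. Cross-linking and processing genes have a median of 0.64, myofibroblast genes of -1.24, and the 10 genes spread on both sides of 0.

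The lists for other cell states and types moved as follows. All 10 myofibroblast genes, which encode contractile proteins, were lower with IL-4, with a median log2 fold change of -1.24, in all fits tried. The largest falls were those of Cnn1 (-1.98), Lmod1 (-1.70) and Actg2 (-1.48), and Acta2 and Tagln, the most abundant, went from 796 ± 20 to 260 ± 20 FPKM and from 551 ± 28 to 195 ± 23 FPKM (SD, n = 3 each). Of the 10 matrix genes followed here, Postn, Lox, Fn1, Fbn1 and Sparc moved the other way. Spp1, Thbs1, Thbs2, Tgfbi and Tnc fell, as the myofibroblast genes did. Of 12 AP markers, 8 were higher and 2 lower, and their summed level was 8813 to 9225 FPKM in controls and 12270 to 13360 with IL-4. Most of that sum came from 3 collagen genes, Col1a1, Col1a2 and Col3a1, with means of 3307, 2501 and 2181 FPKM in controls and 3690, 2990 and 5001 with IL-4. Ly6a, which encodes SCA-1, was read at 120 ± 12 FPKM in controls and 245 ± 40 with IL-4, and Pdgfra at 55.3 ± 1.9 and 71.4 ± 10 (SD, n = 3 each). The largest log2 rises among AP markers were those of Pi16 (4.02), Cd34 (3.35) and Col3a1 (1.37), and Pdgfrb (-0.66) and Lum (-0.61) fell. Col1a1, with Col3a1 the most abundant, had a log2 fold change of 0.33 (adjusted p = 0.017, edgeR's quasi-likelihood test) that was not called on library totals.

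Macrophage RNA was present in both groups despite the removal of CD45-positive cells. Ptprc, which encodes CD45, was read at 18.3 ± 1.2 FPKM in controls and 8.22 ± 0.24 with IL-4 (SD, n = 3 each). Lyz2, the most abundant marker, went from 2739 ± 422 to 776 ± 141 FPKM and C1qa from 488 ± 93 to 189 ± 42 (SD, n = 3 each). The largest log2 falls were those of Cx3cr1 (-8.65), Aif1 (-4.43) and Fcgr1 (-2.91), while Mrc1 rose by 0.82. The falls of Adgre1 (-0.24) and Itgam (-0.27) were small, and Cd68 was not called. Genes that macrophages express after IL-4 were higher in 9 of 9 tested, with a summed level of 85.0 to 110 FPKM in controls and 3655 to 4890 with IL-4. Chil3 and Arg1 led these, at 1552 ± 202 and 1384 ± 242 FPKM with IL-4, followed by Retnla at 775 ± 188, and Ear2 was listed at 0 in all controls and at 12.2 ± 2.1 FPKM with IL-4 (SD, n = 3 each). Since macrophages can also express Fn1, Thbs1 and Tgfbi, the source of each transcript was not tested.

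Markers of other cell types were low. Endothelial markers summed to 14.8 to 15.5 FPKM in controls and 15.3 to 17.5 with IL-4, with 2 of 9 higher (Vwf, 3.08, and Tek, 0.81, in log2) and 4 lower, Cdh5 (-1.60) the most among those with at least 100 normalized counts. Lymphocyte markers summed to at most 0.60 FPKM in any library, with Cd3e and Cd3d not listed, and Cd8a was the one tested (log2 fold change 0.13, adjusted p = 0.72, edgeR's quasi-likelihood test). It was negative on library totals and on FPKM. Of the mature adipocyte genes, Fabp4 rose by 1.10 in log2 and Lipe fell by 0.32 (adjusted p of 0.00030 and 0.043, edgeR's quasi-likelihood test), Adipoq, Plin1 and Cfd had too few reads for a test, and Lep, Cidec and Retn were not listed. Fabp4 is expressed by macrophages and endothelial cells as well as by adipocytes.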

How the data were processed

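Poly-A mRNA was sequenced on BGISEQ-500 as 3 control and 3 IL-4 libraries. The authors filtered reads with SOAPnuke, and the labels name HISAT, StringTie, Bowtie2 and RSEM, with mm10 as the build and no versions. The deposited files give expected counts per gene from RSEM, not normalized, and FPKM, in which the authors took account of the length of transcripts and the size of the library. They also give the transcript length and the transcripts of each gene. An unlisted gene was taken as 0, and 1 row that names no gene (0.00016% of counts) was left out. Small RNA libraries of the series are not analysed here. The day of harvest comes from the paper.

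Expected counts, whole numbers for all 10 genes, were rounded and scaled by TMM after filterByExpr had removed low genes (minimum count 10, minimum total 15), and groups were compared with edgeR 4.0.16 (quasi-likelihood test, R 4.3.3), with Benjamini-Hochberg adjustment over 14009 genes. SE is the absolute log2 fold change divided by the square root of F. Normalized counts are counts over scaled library size times its mean. The code of the fit was also run on simulated counts. These held no length trend, so that run says nothing of how the trend affects the p-values. Paralogue ratios use log2(FPKM + 0.01). Alternatives were DESeq2 1.42.0, upper-quartile scaling, library totals, no filter, limma 3.58.1 on FPKM, and each library left out. The fits without both libraries low in long transcripts and with a lowess length offset (span 0.3), and the length comparison, were added after the data were seen. Python 3.11.15 was used with pandas 2.3.3 and scipy 1.17.1. Counting error is small at 2166 or more counts per gene and library.

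The 10 genes, the lists, the pairs and the motifs were chosen with earlier results of these data known. Beside the 10 genes and their paralogue partners, the text names up to 3 of the largest rises and falls of each list among genes with an adjusted p under 0.05 and at least 100 normalized counts, and the 2 most abundant genes of each marker list. Other genes named (Itgb1, Itgav, Vtn, Cd44, Col1a2, Ptprc, Adgre1, Itgam, Cd68, Ly6a, Pdgfra, Tll1 and those not tested or not listed) were chosen after their values were seen. No pair of libraries was a duplicate, since counts differed by more than sampling noise in every pair (chi-square per degree of freedom of at least 2.49). Coordinates and sequences are from RefSeq on GRCm38.p6, the same assembly as mm10.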

Additional observations from a re-analysis of the deposited data

How the results depend on the processing

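None of the 140 fold changes of the 10 genes under the 14 alternatives changed sign, and 130 kept their call. The 10 that lost it were those of Fbn1 (6), Tnc (2) and Sparc (2) given above. Limma on log2(FPKM + 1) and on log2(FPKM + 0.1) left 3 of the 10 genes higher in each case, without Fbn1 and Sparc. The number of the 10 genes lower by more than 1 in log2 ranged from 1 to 3 with each library left out in turn, and was 1 without IL-4 replicate 6. Over all genes, library totals gave 1704 higher and 4963 lower, limma on log2(FPKM + 1) gave 1697 and 4916, and limma on log2(FPKM + 0.1) gave 1694 and 4904. Beyond a log2 fold change of 1, limma on log2(FPKM + 1) gave 348 higher and 352 lower, in place of 809 and 737, since that pseudocount shrinks low genes. The log2 difference of the Sparc to Sparcl1 ratio was -3.26 with a pseudocount of 1 in place of -3.85, that of Tnc to Tnxb was -1.22 in place of -1.42, a shift above the SD of the IL-4 libraries (0.154) and just under that of the controls (0.205), and the other pairs moved by less than the larger of their 2 SDs. That of Cd8a in log2 turned to -0.042 on library totals, -0.00396 on log2(FPKM + 1) and -0.015 on log2(FPKM + 0.1), none of them called. No paired analysis was possible because control and IL-4 cultures share no replicate number. Depth does not limit the 10 genes, which had at least 2166 counts in every library.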
